A study of Mus musculus with 7 samples.

Results

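Under a diet with retinoic acid (RA), retinoic acid receptor α (RARα) gained a peak at 2589 liver genomic regions where retinoid X receptor α (RXRα) had been called under both diets and where retinoic acid receptor β (RARβ) was called under neither. These regions, called RARα-gained regions here, are 2589 of the 87787 regions obtained by merging overlapping or touching peaks of the 6 deposited peak lists. A region was taken as RARα-gained when it held a peak of both RXRα lists and of the RARα list under RA, and no peak of the RARα list under control nor of either RARβ list. The regions were thus chosen by the presence or absence of a call in all 6 lists, and calls and scores are given below as description, with no test.

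The study used chromatin immunoprecipitation followed by sequencing (ChIP-seq) on livers of wild-type C57BL/6 male mice aged 3 months. The mice received a normal diet (control) or an RA diet, for 1 day by the labels, and no other allele or agent is named for either group. Each receptor was measured in 1 library per diet, so no difference between diets has a replicate check, and whether a library came from 1 animal or from pooled animals is not stated in the labels. Whole liver was used, so a change in binding per cell and a change in the share of cells of 1 type cannot be told apart.

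RARα and RARβ are nuclear receptors that bind RA, and each binds DNA as a heterodimer with RXRα. The pair recognises repeats of a hexamer close to AGGTCA in direct orientation, spaced by a few bases, recruits corepressors without ligand and exchanges them for coactivators when RA binds. RXRα also pairs with other liver receptors, such as PPARα, LXR and FXR, which control fatty acid oxidation, lipogenesis and bile acid synthesis, so an RXRα site need not carry a RAR.

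Sequence could be read only for regions whose RARα peak overlaps a promoter window. The windows come from the RefSeq table of promoters of GRCm38.p6 (mm10), which holds 250 bases before and 50 bases after each start. The 5 windows printed here belong to protein-coding genes of the cell cycle, xenobiotic metabolism and lipid metabolism, were chosen after their values were seen, and are written 5′ to 3′ on the gene's strand. Capitals mark 6-letter matches, on either strand, to AGGTCA or to its variants GGTTCA (a G first and a T inside), GGGTCA (a G first) and AGTTCA (a T inside). Ccnd3 (cyclin D3, chr17:47504801-47505100, plus strand) had the highest RARα score among regions within 1 kb of a start, and matches begin at bases 140 and 154 of its window. Cyp2c37 (a cytochrome P450, chr19:39992174-39992473, plus strand) and Acot2 (a mitochondrial acyl-CoA thioesterase, chr12:83987611-83987910, plus strand) held none. Me1 (cytosolic malic enzyme, a source of NADPH for fatty acid synthesis, chr9:86695865-86696164, minus strand) held 1 at base 36. Acot11 (another acyl-CoA thioesterase, chr4:106804958-106805257, minus strand) held 2, at bases 43 and 225.
Ccnd3: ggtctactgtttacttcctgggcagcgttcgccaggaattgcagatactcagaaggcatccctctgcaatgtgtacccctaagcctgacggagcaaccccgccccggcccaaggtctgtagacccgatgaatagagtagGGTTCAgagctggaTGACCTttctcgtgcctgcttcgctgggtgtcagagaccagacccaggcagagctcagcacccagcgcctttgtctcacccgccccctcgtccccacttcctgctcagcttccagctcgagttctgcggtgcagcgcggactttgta
Cyp2c37: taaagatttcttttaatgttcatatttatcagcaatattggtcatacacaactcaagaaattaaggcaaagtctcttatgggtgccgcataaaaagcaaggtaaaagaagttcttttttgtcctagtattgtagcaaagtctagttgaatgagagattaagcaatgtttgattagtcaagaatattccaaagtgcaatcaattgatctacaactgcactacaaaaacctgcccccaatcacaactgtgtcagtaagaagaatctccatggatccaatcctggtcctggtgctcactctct
Acot2: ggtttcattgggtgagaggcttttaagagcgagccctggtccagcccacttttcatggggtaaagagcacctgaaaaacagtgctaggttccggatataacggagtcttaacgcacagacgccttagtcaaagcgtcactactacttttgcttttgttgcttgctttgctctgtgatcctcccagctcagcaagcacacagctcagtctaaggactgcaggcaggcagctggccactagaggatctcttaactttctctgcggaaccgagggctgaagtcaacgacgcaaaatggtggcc
Me1: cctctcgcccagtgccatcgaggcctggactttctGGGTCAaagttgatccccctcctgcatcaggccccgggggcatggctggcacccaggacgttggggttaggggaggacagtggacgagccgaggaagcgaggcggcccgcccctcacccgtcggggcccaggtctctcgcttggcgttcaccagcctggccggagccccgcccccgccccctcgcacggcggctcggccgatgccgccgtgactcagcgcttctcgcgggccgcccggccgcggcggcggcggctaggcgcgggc
Acot11: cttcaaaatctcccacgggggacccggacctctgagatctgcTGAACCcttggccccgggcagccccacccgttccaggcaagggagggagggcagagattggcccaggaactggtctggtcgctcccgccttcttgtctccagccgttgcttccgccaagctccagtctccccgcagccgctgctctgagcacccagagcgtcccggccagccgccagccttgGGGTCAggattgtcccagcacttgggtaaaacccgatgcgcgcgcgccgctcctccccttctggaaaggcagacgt

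RARα peaks of the RARα-gained regions overlapped 75 such promoter windows, from 65 regions, and 41 of the windows belonged to 37 protein-coding genes. Any overlap was counted, such as 8 bases at Aldh1a2, so a peak need not lie on the start. Matches were counted over the whole window, inside the peak or not. AGGTCA in any position and on either strand was found in 19 of the 75 windows, 25.3% (Wilson 95% interval 16.9 to 36.2%), against 16.3% of all 32851 windows of the table. Any of the 4 forms was found in 38 windows, 50.7% (39.6 to 61.7%), against 43.7% of all windows, 58.4% (52.8 to 63.9%) of windows under regions that kept RXRα without RAR and 62.6% (53.5 to 70.9%) of those under regions that gained both RARs. The 4 forms are distinct letter strings, but neighbouring matches can share their end bases, and windows of neighbouring starts can share sequence. Windows under regions that kept RXRα without any RAR held AGGTCA in 25.7% of 296 cases (21.0 to 30.9%), and windows under regions with RARα in both diets in 16.5% of 333 (12.9 to 20.9%). The share in RARα-gained windows was thus within the interval of the windows with no RAR, and its lower bound was close to the share in all windows. The base composition of the sets was not matched. Direct repeats of the 4 forms with a spacer of 1, 2 or 5 bases (DR1, DR2 and DR5) were found in 0 of the 75 windows each, which allows a share of up to 4%, and among all windows they made up 0.222%, 0.268% and 0.0974%. Of the 41 protein-coding windows, 12 lay wholly inside the RARα peak. All intervals given here cover counting error over regions, windows or genes only. Regions far from starts have no sequence in the table, so their letters were not analysed here.

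Regions with RXRα under both diets and no RAR under control numbered 25112, and they are the set from which a gain of RARα alone could be drawn. The share that became RARα-gained was 10.3% (Wilson 95% interval 9.94 to 10.7%), a value the selection itself defines. In 13.5% (13.1 to 13.9%) both RARs were called under RA, in 17.2% (16.7 to 17.7%) RARβ alone, and in 59.0% (58.4 to 59.6%) neither. Across all 87787 regions, 15% held a RARα peak under RA and none under control, 13159 in number. Of those 13159 gains, RXRα was called under both diets in 53.5%, under 1 diet in 7.91% and under neither in 38.6%. The 2589 RARα-gained regions made up 19.7% of the gains, fewer than the 3388 (25.7%) in which RARβ appeared at the same place under RA. In the opposite direction, 1051 regions with RXRα under both diets and no RARβ call held RARα under control and not under RA. The ratio of gained to lost was thus 2.46. Across all regions, 5270 held RARα under control and not under RA, against the 13159 gains. An excess of gains of similar size was thus seen over the whole list and is not particular to the RARα-gained regions. The RARα list was also longer under RA, with 44296 peaks against 35521 under control, so other lists were also compared. With a score of at least 100 asked of the RARα and RXRα calls and the other lists as deposited, 241 of the 2589 regions were kept, and the ratio was 4.73. With peaks under 100 removed from all lists, 1847 regions met the rule with a ratio of 4.11, but only 241 of them overlapped the 2589 and 1606 were other regions, which meet the rule once weaker control or RARβ peaks are removed. With each list shortened to its 14968 highest-scoring peaks, the length of the shortest list, 107 regions met the rule with a ratio of 1.55, and 4 of them overlapped the 2589. More regions were gained than lost under each of these settings, but which regions were called RARα-gained depended on the score minimum.

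The 25112 regions were then divided into quintiles by their RXRα score under control, the peak caller's score, a multiple of the negative log10 p-value that depends on library depth and was read only within 1 list. The RARα-gained share was 8.14% (7.42 to 8.93%) in the lowest quintile, 10.4% in the second, 11.4% in the third, 12.05% (11.2 to 12.98%) in the fourth and 9.52% (8.74 to 10.4%) in the highest. It was thus lower at both ends than in the fourth quintile, by intervals that do not overlap, and did not keep going up with the RXRα score. Gain of both RARs went from 2.57% in the lowest quintile to 35.6% in the highest, and gain of RARβ alone from 9.66% to 26.5%. Regions with neither RAR went from 79.6% to 28.4%. At regions of high RXRα score, a gained RARα peak was hence more often joined by a RARβ peak, while the share with RARα alone stayed between the values of the lowest and the fourth quintile.

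**Figure D1:**
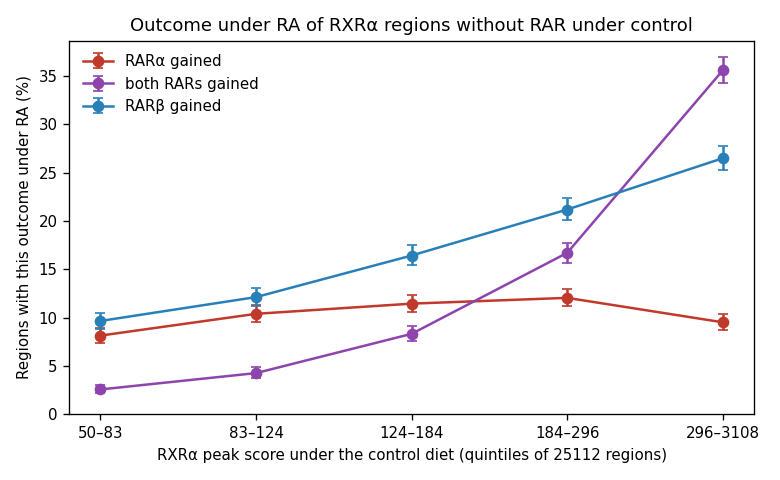
Share of the 25112 regions with RXRα under both diets and no RAR under control (vertical axis, percent) that gained RARα alone, both RARs or RARβ alone under RA, by quintile of the RXRα score under control (horizontal axis, score range of each quintile). Points are shares and bars Wilson 95% intervals. RARα alone stays between 8.14% and 12.05%, while both RARs go from 2.57% to 35.6%.

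The RARα peaks of the RARα-gained regions were weak within their own list. Their RARα score under RA had a median of 69.3 with quartiles of 59.2 and 86.7, and ran from 50.03 to 240.45, while the whole RARα list under RA had a median of 123. In ranks of that list, the median RARα-gained region stood at percentile 19.4, against 27.1 for regions that gained both RARs and 54.6 for regions with RARα under both diets. Scores from 50 to 60 were held by 703 regions (27.2%), from 60 to 75 by 848 (32.8%), from 75 to 100 by 674 (26.0%), from 100 to 150 by 315 (12.2%) and of 150 or more by 49 (1.89%). A score of 100 or more was reached by 14.1% (12.8 to 15.5%), compared with 29.4% of regions that gained both RARs and 65.1% of regions with RARα under both diets. Most RARα-gained calls thus stood near the floor of 50 that all lists shared.

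RXRα at the same regions was of middle rank. The RXRα score under control had a median of 159 and ran from 50.1 to 1275, and under RA it had a median of 167 and ran from 50.2 to 1304. The corresponding median percentiles in the RXRα lists were 55.0 and 55.9. Regions that gained both RARs stood higher, at percentiles 78.3 and 81.1, and regions that kept RXRα without RAR stood lower, at 43.4 and 40.2. RXRα rank was higher under RA than under control in 51.3% (49.4 to 53.2%) of the RARα-gained regions, with a median shift of 0.564 percentile points. The same was seen for 58.4% of regions that gained both RARs and 55.9% of those that gained RARβ alone. It was seen for 45.8% (45.0 to 46.6%) of regions that kept RXRα without RAR, with a median shift of -2.09 points. For regions with RARα under both diets the share was 44.4%, and for regions that lost RARα 35.4%. Only for RARα-gained regions among these classes did the interval include an even split, and it lay above that of regions without RAR. RXRα was called at all of these regions in both diets by the selection.

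**Figure D2:**
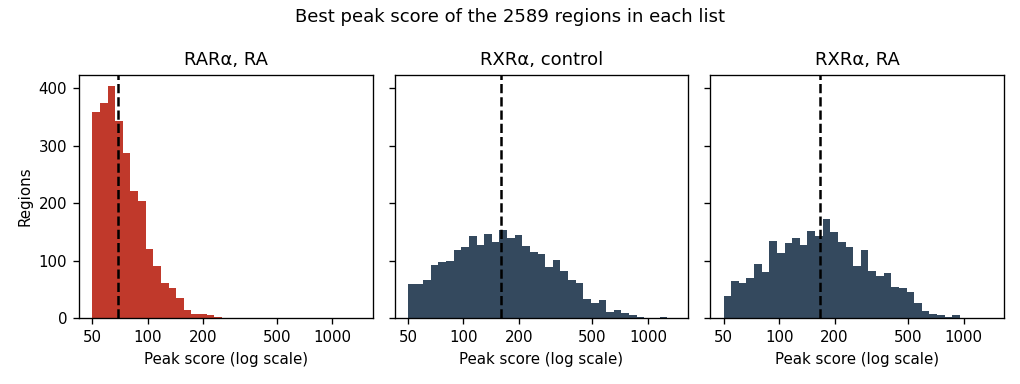
Number of RARα-gained regions (vertical axis) by the score of their best peak (horizontal axis, log scale) in the RARα list under RA and in the RXRα lists under control and RA. Dashed lines are medians, 69.3, 159 and 167, and the RARα scores pile up at the floor of 50 while RXRα scores reach 1275 and 1304.

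At the edge of the selection, the 5 regions with the lowest RARα scores under RA had scores from 50.03 to 50.15 and lay nearest to the starts of Met (a receptor tyrosine kinase for hepatocyte growth factor), Slc9a8, Kcnab2, Dsg2 and Dsg1c. RXRα at the Met region scored 166 under control and 129.88 under RA. Just outside stood regions with RXRα in both diets, RARα under RA and no RARβ, whose RARα score under control was barely above the floor. These were nearest to Dcdc2c (50.03 under control, 59.4 under RA), Hes1 (50.03 and 91.6), 4930432M17Rik (50.05 and 103), Acacb (50.05 and 63.9) and Pde3a (50.06 and 78.1). Acacb encodes the mitochondrial acetyl-CoA carboxylase, and Hes1 a transcriptional repressor of the Notch pathway.

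Within the RARα-gained regions the RARα peak mostly overlapped the RXRα peak, which follows largely from the selection. A region joins only peaks that overlap or touch, and each RARα-gained region had to hold both receptors. The distances below are thus a description. Distances were taken between the midpoints of the best-scoring RARα peak under RA and the best-scoring RXRα peak of the region. The median was 58.5 bp for RXRα under control (quartiles 27 and 108 bp) and 59.5 bp for RXRα under RA (27.5 and 111 bp). Midpoints lay within 100 bp of each other in 72.0% (70.3 to 73.7%) and 70.9% (69.1 to 72.6%) of regions. For regions that gained both RARs the shares were 64.7% (63.1 to 66.3%) and 63.1%, and for regions with RARα under both diets 69.0% and 68.5%. Between the best-scoring peaks, a reciprocal overlap of at least 25% of each peak's width held for 2511 regions (97.0%) with RXRα under control and 2525 (97.5%) with RXRα under RA. In 27 and 24 regions the best-scoring peaks did not overlap directly. The RARα peak had a median width of 368 bp and was narrower than the RXRα peak under control in 83.4% and than the RXRα peak under RA in 86.9% of regions. Peaks in the whole RARα list under RA were also narrower than those in the RXRα lists, with a median of 450 bp against 545 and 563 bp. The merged regions had a median width of 669 bp, against 838.5 bp for regions that gained both RARs and 568 bp for those without RAR.

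**Figure D3:**
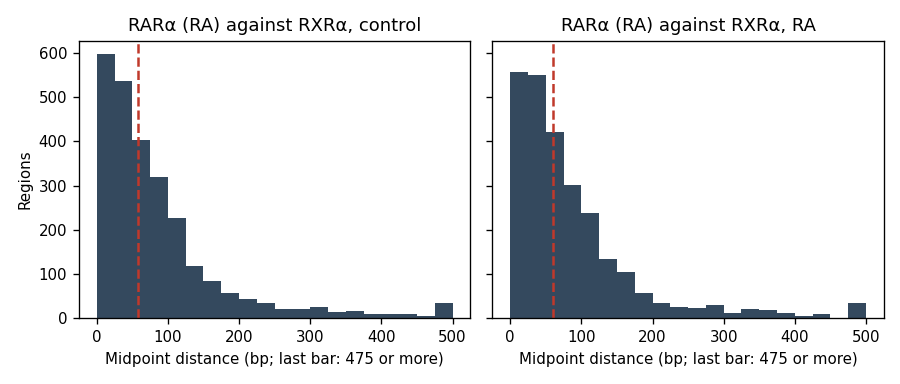
Number of RARα-gained regions (vertical axis) by the distance in bp between the midpoint of the RARα peak under RA and that of the RXRα peak under control (left) or RA (right). Dashed lines are medians, 58.5 and 59.5 bp, and the last bar collects larger distances.

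RARα-gained regions were mostly far from gene starts. The median distance from the RARα peak to the nearest start of a protein-coding gene was 34234 bp, compared with 22644 bp for regions with RARα under both diets and 30754 bp for regions that kept RXRα without RAR. Within 1 kb of a start lay 64 regions, 2.47% (1.94 to 3.14%), against 12.2% (10.97 to 13.6%) of regions with RARα under both diets. These intervals do not overlap, whereas regions that gained both RARs (2.27%), RARβ alone (2.57%) or no RAR (2.15%) had shares within the interval of the RARα-gained regions. Within 10 kb lay 547 regions, 21.1% (19.6 to 22.7%), a value below that of regions that gained RARβ alone (26.2%, 24.9 to 27.5%), of regions without RAR (24.2%, 23.5 to 24.9%) and of regions with RARα under both diets (32.3%, 30.4 to 34.2%), with no overlap of intervals. It did not differ beyond counting error from the 20.7% (19.4 to 22.1%) of regions that gained both RARs. More than 100 kb from any start lay 623 regions (24.1%), and 965 (37.3%) lay between 10 and 50 kb. A protein-coding gene's span, exons and introns together, held 1419 regions, 54.8% (52.9 to 56.7%), close to the 56.8% of regions without RAR. Of the 1847 regions that met the rule with peaks under 100 removed from all lists, most of them other regions, 6.28% lay within 1 kb.

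**Figure D4:**
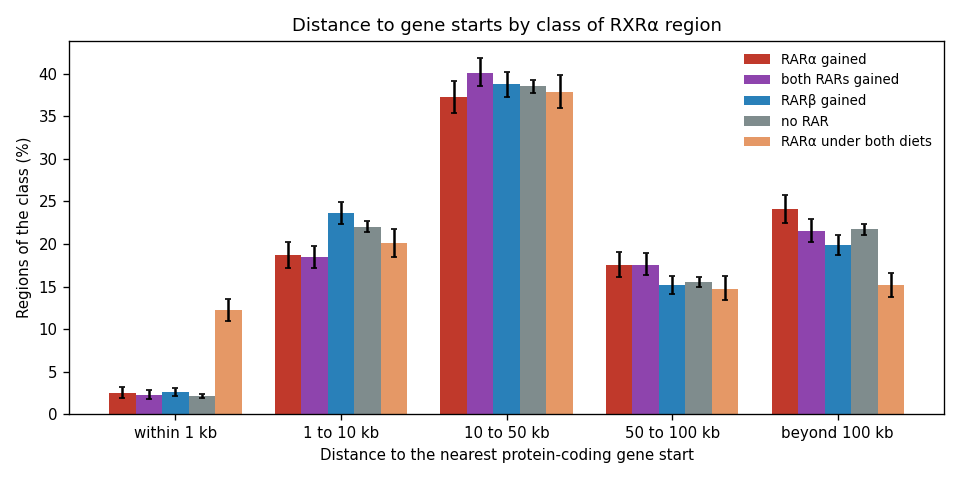
Share of regions in each class (vertical axis, percent) by distance of the RARα peak, or of the RXRα peak where there is none, to the nearest protein-coding gene start (horizontal axis, 5 bins). Bars are Wilson 95% intervals. RARα under both diets stands out within 1 kb with 12.2% against 2.47% of RARα-gained regions, and 24.1% of RARα-gained regions lie beyond 100 kb.

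The share of the 25112 regions that became RARα-gained was spread over the chromosomes, from 8.24% (6.29 to 10.7%) on X to 11.9% (10.3 to 13.5%) on 6, with 1 region of 65 on Y. Most RARα-gained regions had no other RARα-gained region within 50 kb. One lay within that distance of 670 of them (25.9%), and the share for regions scattered at random was not computed. Other RXRα regions were near more often. Regions that kept RXRα without RAR lay within 50 kb of 1819 (70.3%), regions that gained RARβ alone of 856 (33.1%), and regions that gained both RARs of 789 (30.5%). For regions with RARα under both diets it was 580 (22.4%). Chained at 50 kb, the RARα-gained regions formed 1919 single regions, 256 pairs, 46 runs of 3 and 5 runs of 4. The runs of 4 lay in Met (80.9 kb long, from chr6:17468442 to 17549381, inside the span of the gene, RARα scores of 50.03 to 97.2), and at Sh3pxd2a (99.5 kb), Bicra and Ehd2 (40.5 kb), Maco1 (34.2 kb) and Galnt2 (85.4 kb). Among runs of 3, the one at Notch2, a Notch receptor, reached a RARα score of 165, that at Tcf7l2, a transcription factor of Wnt signalling, 133, and that at Corin held scores of 101 to 133.

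RARα at other places near the same genes was common. The nearest RARα peak under control lay a median of 10563 bp from a RARα-gained region, within 1 kb of 207 of them (7.995%) and within 10 kb of 1253 (48.4%). The nearest RARβ peak under RA lay at a median of 10031 bp and within 1 kb of 253 regions (9.77%), and the nearest RARβ peak under control at 28493 bp. Regions that kept RXRα without RAR had similar values for RARα under control, with a median of 10505 bp, 8.16% within 1 kb and 48.7% within 10 kb, and for RARβ under RA a median of 12354 bp. Protein-coding genes with a RARα-gained region within 10 kb of the start numbered 641, 2.98% of the 21535 genes with a known strand, and 66 genes (0.306%) had one within 1 kb. With a score of at least 100 in the called lists, 45 of the 641 genes were kept. With that minimum in all lists 524 genes had a region, of which 72 were among the 641, and with lists of equal length 33, of which 3 were. Of the 641 genes, 527 (82.2%) also had a RARα peak under control elsewhere within 10 kb, against 61.9% of all protein-coding genes. No RAR peak of any kind under control lay within 10 kb for 102 of them (15.9%), and for 80 (12.5%) the RARα-gained region was the only place within 10 kb of the start with a RAR peak in the lists, apart from other RARα peaks under RA. For most of these genes RARα was therefore also called near the gene under the control diet, at another region. The 61.9% covers all protein-coding genes, not only those near RXRα regions. Regions that kept RXRα without RAR lay as near to RARα peaks under control, so this is not particular to the RARα-gained regions.

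The highest RARα scores belonged to regions near genes of several functions. At Acot12, a cytosolic acetyl-CoA hydrolase, a region at chr13:91723077-91723605 scored 240.45 for RARα under RA, with RXRα at 68.5 under control and 103 under RA. It lay at -18.0 kb from the start, where negative values are upstream. At Lipm, a member of the acid lipase family, a region at chr19:34096146-34096701 and -4.49 kb scored 237 for RARα, with RXRα at 192 under control and 232 under RA. It was the more isolated of the pair, as the nearest RARα peak under control lay 147210 bp away and the nearest RARβ peak under RA 194248 bp away, against 17722 and 17070 bp at Acot12.

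A region of 7481 bp at Mup13 (chr4:61222080-61229560), which holds 5 merged peaks, scored 237 for RARα, with RXRα at 543 under control and 529 under RA. Mup13 is one of the major urinary protein genes, a family of near-identical copies, so reads of 35 bp may not be assigned to 1 copy and its value is uncertain. At Hspa8, a constitutive heat shock chaperone, the RARα score was 227 and RXRα scored 216 under control and 120.15 under RA, in a region of 3428 bp that overlaps the end of the gene. RARα scored 223 near Gm6614, 214 in the span of Ldlrad3, 211 in that of Lrrc28, 206 in that of Zfat, 204 near Hsfy2, 203 near Gm11232 and 196 at Ypel4. The regions near Hsfy2 and Gm11232 had no RARα peak under control within 241323 and 187906 bp. Starts of these genes lay 4.68 kb away at Ypel4 and up to 97.4 kb away at Hsfy2, so the gene named is only the nearest.

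Within 1 kb of a start, the highest RARα score under RA was at Ccnd3, cyclin D3, a regulatory subunit of kinases that drive entry into S phase. Its region (chr17:47504712-47505554), which holds the first of the windows printed above, scored 216 for RARα, with RXRα at only 67.9 under control and 73.8 under RA, and a RARα peak under control lay 2059 bp away. The region at Me1 (chr9:86695538-86696447) scored 134 for RARα, with RXRα at 133 under control and 416 under RA, and the nearest RARα peak under control was 49611 bp away. The region at Cyp2c37 (chr19:39992103-39992736) scored 151 for RARα, with RXRα at 205 under control and 249.53 under RA. Its nearest RARα peak under control was 61745 bp away, but a RARβ peak under RA lay 2048 bp away. Cyp2c37 belongs to a cluster of related Cyp2c genes, in which short reads can be shared between copies.

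The remaining starts in this set were of varied function. Lzts1, a leucine zipper protein, had a RARα score of 156 and RXRα scores of 165 under control and 265 under RA. Hddc3 had 155 for RARα and low RXRα scores of 52.9 and 55.3, and Dpep2, a membrane dipeptidase, had 144 for RARα with RXRα at 123 and 57.4. Acot2 held 5 merged peaks and scored 145 for RARα with RXRα at 76.1 and 91.4, and Acot11 scored 115 with RXRα at 81.3 and 91.0. With Acot12, 3 genes of the acyl-CoA thioesterase family are among those named by score, a grouping made after their values were seen and not tested. Mab21l4 scored 129 for RARα with RXRα at 235 and 188. Jagn1, an endoplasmic reticulum protein, scored 117 with RXRα at 251 and 75.5, and its region is the same one that is counted for Cidec below.

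Plscr2, a phospholipid scramblase, had 3 RARα-gained regions within 10 kb of the start. All 3 were upstream, with RARα scores of 99.5, 91.0 and 93.0, and RXRα between 91.9 and 129 under control and between 61.5 and 183 under RA. In all, 19 of the 641 genes had 2 or more. Regions with the most merged peaks, 6 each, were nearest to Camk1g, Dsg1c and Sall1 and lay far from those starts, with RARα scores of 84.6, 67.3 and 66.3.

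Genes of 25 lists, covering receptors, their partners and liver pathways, were then read for RARα-gained regions within 10 kb of the start, against the 2.98% of all protein-coding genes. Only the outermost start of each gene was used, so regions at other starts, such as those of Pparg and Acsl1 given at the end, are not counted. For transcription factors and their partners, each list had 2 such genes or none, too few to call a share low. No member of the 25 genes for nuclear receptors and their partners had one, which allows a share of up to 12%. Near them lay 14 regions with RXRα under both diets and no RAR under control. None of these was RARα-gained, against 9.17% of such regions near all protein-coding genes. None of the 20 circadian clock genes had one either, which allows up to 15%. Of 18 hepatocyte transcription factors, 2 had one. Foxa2, a pioneer factor of liver genes, had a region at -1.69 kb with RARα at 149 and RXRα at 57.8 under control and 137 under RA, and Onecut2 one at 9.27 kb with RARα at 77.9. At both genes a RARα peak under control lay close by, at 751 and 544 bp, and a RARβ peak under RA at 800 and 417 bp.

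Of 20 corepressors and coactivators, 2 had a region. Cited2, a transcriptional coregulator that binds CBP and p300, had a RARα score of 173 with RXRα at 290.46 under control and 349.61 under RA, at 4.61 kb, beyond the end of the gene, and Ncoa4, the ferritinophagy receptor first described as a coactivator, a RARα score of 86.9 at -7.17 kb. Of 24 genes for RAR targets and retinoid handling, the 1 with a region was Aldh1a2, which makes RA from retinal. Its region at -0.409 kb (chr9:71215215-71215926) scored 70.7 for RARα, with RXRα at 98.2 under control and 103 under RA, and a RARα peak under control lay 3964 bp away. Near the 24 genes, 22 regions with RXRα and no RAR under control were found, of which 2 gained both RARs, 7 RARβ alone and 12 neither.

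Lipogenesis and lipid droplets was the list with the highest share among those of more than 6 genes. A RARα-gained region lay within 10 kb of 6 of its 33 genes, 18.2% (8.61 to 34.4%), whose interval lies above the 2.98% of all protein-coding genes. As 1 of 25 lists read, this is a description. Of the 35 regions with RXRα and no RAR under control near the 33 genes, 6 gained RARα alone (17.1%, against 9.17% near all protein-coding genes), 7 both RARs and 6 RARβ alone, and 16 stayed without RAR. The 17.1% rests on 6 regions and has no interval here, so whether it differs from 9.17% beyond counting error was not tested. Me1, described above, had the highest RARα score and was the only one of the 6 with no RARα peak under control within 10 kb. Cidec, a lipid droplet protein, shared its region (RARα 117) with Jagn1, at -6.80 kb from Cidec.

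Fasn, fatty acid synthase, had a region at -7.07 kb (chr11:120831611-120832638) with RARα at 92.8 and RXRα at 74.1 under control and 169 under RA, only 456 bp from a RARα peak under control and 87 bp from a RARβ peak under RA. Acly, which supplies cytosolic acetyl-CoA, had one at 9.58 kb with RARα at 65.8 and RXRα at 276 under control and 170.38 under RA. Srebf1, the transcription factor that drives lipogenic genes, had one at -5.90 kb with RARα at 76.9 and RXRα at 171 and 76.4. Elovl2, a fatty acid elongase, had one at 8.94 kb with RARα at 85.3 and RXRα at 120.47 and 184. RXRα scores of the control and RA lists are given side by side and were not normalized between libraries.

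Phase I and II enzymes had regions at 4 of 38 genes, 10.5% (4.17 to 24.1%). Besides Cyp2c37 these were Cyp2b10, the phenobarbital-induced P450 (RARα 109 at -7.98 kb), Cyp2c29 (RARα 68.9 at -1.20 kb, RXRα 313 under control) and Nqo1, a quinone reductase, with 2 regions of RARα scores 52.5 and 77.6. Bile acid synthesis and transport had 2 of 25. Slco1a4, a sinusoidal uptake transporter, had a region on its start (0.0555 kb) with RARα at 92.6 and RXRα at 236 under control and 161 under RA, and Abcc2, the canalicular exporter, had RARα at 83.2 and RXRα at 325 under control at -5.58 kb. The interval of phase I and II enzymes lay above 2.98%, as did that of the hepatocyte transcription factors (3.10 to 32.8%), and that of bile acid genes (2.22 to 24.97%) included it. Of the 47 regions with RXRα and no RAR under control near the phase I and II genes, 5 were RARα-gained, 10.6%, close to the 9.17% near all protein-coding genes, and near the hepatocyte transcription factors 2 of 16 were (12.5%).

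Fatty acid oxidation had 2 of 30 genes, Acadm, the medium-chain acyl-CoA dehydrogenase (RARα 59.8 at 6.98 kb), and Scp2, a peroxisomal thiolase and sterol carrier (RARα 55.5 at 7.75 kb). PPARα targets had 1 of 20, which was Acadm again, and LXR and FXR targets 1 of 20, Srebf1. Urea cycle and amino acid catabolism had 2 of 30, Tat, tyrosine aminotransferase (RARα 79.0 at -3.42 kb), and Hal, histidine ammonia-lyase (RARα 55.6 at 8.55 kb). RARα scores at these 4 genes were below 80 in each case, in the weak part of the list.

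Insulin, growth hormone and IGF signalling had 2 of 29. Igf1 had a region at -0.53 kb (chr10:87857435-87859338) with RARα at 56.2 and RXRα at 206 under control and 303 under RA. Trib1, a pseudokinase that regulates hepatic lipogenesis, had one at 5.34 kb with RARα at 107. At Trib1 a RARα peak under control lay only 70 bp away and a RARβ peak under RA 55 bp away. Cholesterol synthesis and uptake had 1 of 25 (Insig2, a sterol sensor, RARα 59.8), apolipoproteins and lipoprotein handling 1 of 26 (Apoh, 53.9), and acute phase, complement and coagulation 1 of 44 (F11, 61.8). Glucose metabolism had 0 of 26, which allows up to 11.5%, and cytosolic ribosomal proteins and respiratory chain subunits 0 of 30 each, which allows up to 10%. Of 15 genes the study names, Cyp2c37 was the only one with a RARα-gained region. For all lists with a count of 0 the interval included the 2.98% of all genes.

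**Figure D5:**
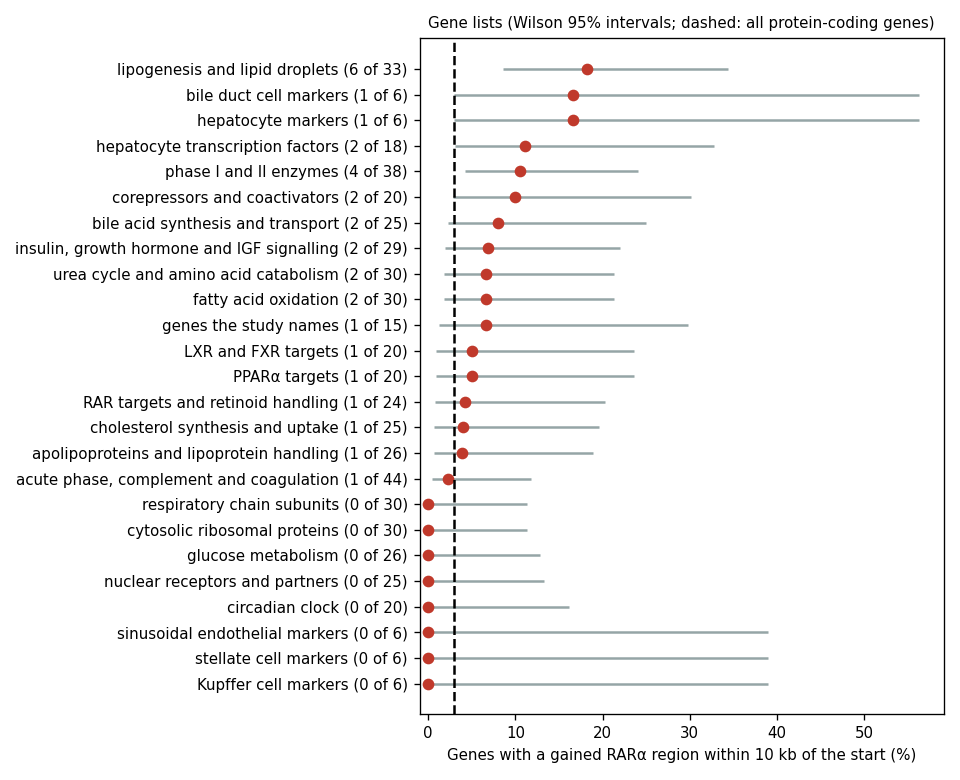
Share of the genes in each of 25 lists with a RARα-gained region within 10 kb of the start (horizontal axis, percent, with the counts beside the list names). Points are shares, lines Wilson 95% intervals and the dashed line the 2.98% of all protein-coding genes. Lipogenesis and lipid droplets, with 6 of 33, has its interval to the right of the dashed line. So have phase I and II enzymes with 4 of 38 and hepatocyte transcription factors with 2 of 18. The hepatocyte and bile duct cell markers rest on 1 gene of 6 each, and their lower bound of 3.01% barely passes the line. Another 8 lists stand at 0.

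Markers of liver cell types were read on the RXRα side, since RNA was not measured. Near the 6 hepatocyte markers lay 12 regions with RXRα under both diets and no RAR under control, compared with 2 near 6 Kupffer cell markers, 4 near 6 stellate cell markers, 4 near 6 sinusoidal endothelial markers and 2 near 6 bile duct cell markers. Near all 21535 protein-coding genes lay 5964 such regions. Regions with a RAR under control were left out and each list is short, so these counts do not check the labelled tissue. RARα-gained regions were near 1 hepatocyte marker (Tat) and 1 bile duct cell marker (Sox9, RARα 74.4 at 6.37 kb), and near 0 of the 6 Kupffer cell, 6 stellate cell and 6 sinusoidal endothelial markers, each of which allows up to 50%. Of the 12 regions near the hepatocyte markers 1 was RARα-gained, 8.33%, against 9.17% near all protein-coding genes. Near the bile duct cell markers it was 1 of 2, too few to read. Sox9 is also a factor of progenitor cells, and a region near it does not show in which cells it was bound.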

How the data were processed

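ChIP-seq libraries of RARα, RARβ and RXRα, 1 per receptor and diet, were analysed from the 6 peak lists of the authors. Per the labels and the study's methods, reads of 35 bp were processed with CASAVA 1.4, aligned to mm10 with Bowtie 0.12.7 and called with MACS 1.4.1, per library. The deposited score of each peak is the peak caller's own, a multiple of a negative log10 p-value that was not normalized between libraries, and the lowest in the lists is 50. The RA diet lasted 1 day by the labels. The paper gives a longer RA diet for mice whose expression and serum lipids were measured. It states no RA diet for its ChIP-seq livers and reports no RARβ library, so the labelled 1 day was used here. Read totals per list are not in the files, so depth is unknown. The input library was not analysed here, and no column of another series was met (0 columns).

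Peaks of all 6 lists were merged where they overlapped or touched, with python 3.11.15, pandas 2.3.3 and numpy 2.4.6. A region took the best score of each list. Distances ran from the midpoint of the best RARα peak to the outermost start of 21535 protein-coding genes of RefSeq GRCm38.p6. Their strand came from the RefSeq promoter table for 17492 genes and from GENCODE M1, by symbol, for 4043. Exons and introns were not separated. The highest peak end on chromosome Y is 90842021. Intervals are Wilson 95% intervals, and a count of 0 was given the limit of 3 counts. With 1 library per group no p-value was computed. The merging, calling and distance steps were tested on simulated data.

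The members and the 25 gene lists, whose 558 genes all matched, were chosen with earlier results of these data known. Named were the 12 regions of highest RARα score, the 10 highest within 1 kb of a start, genes with 3 or more regions, list genes with a region within 10 kb, the 5 regions of lowest score and the 5 with the most merged peaks. An item that this rule names is not reported here. The alternatives were other score minima, lists of equal length, a wider absence, a stricter overlap, other gene sets and another reference point.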

Additional observations from a re-analysis of the deposited data

How the results depend on the processing

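Leaving out a replicate was not run, with 1 library per receptor and diet. No paired analysis was possible because each group holds 1 sample. A stricter overlap of 25% and the midpoint of the region as reference moved no result by more than its counting interval, or a count by more than 1.5 times.

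With a score of at least 100 in all lists, 1847 regions met the rule, of which 241 overlapped the 2589, the share of the RXRα regions was 8.24%, the share within 10 kb 24.3%, within 1 kb 6.28%, the median RARα score 126.59 and the ratio of gained to lost 4.11. With lists of equal length, 107 regions met the rule, of which 4 overlapped the 2589. They were 1.59% of the RXRα regions, with 27.1% within 10 kb, 7.48% within 1 kb, 33 genes, a median score of 197.96 and a ratio of 1.55. With no peak of the absent lists within 1 kb, the shares were 9.86% and, within 10 kb, 19.0%. With a score of at least 100 in the called lists only, 241 regions, 1.65% of the RXRα regions, 15.8% within 10 kb, 45 genes, a median score of 118.07 and a ratio of 4.73 were obtained. Genes of all kinds gave 32.5% within 10 kb, 5.02% within 1 kb and 1083 genes. Adding all starts of the RefSeq promoter table, an alternative chosen after seeing the data, as was the ratio itself, gave 23.9% within 10 kb. The causes were not tested. Depth is unknown, so an absent call may be a peak below the caller's threshold.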

Other observations

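MicroRNA hairpins of the RefSeq table were read as a further gene group, chosen after seeing the data. Of 1005 hairpins, 35 (3.48%) had a RARα-gained region within 10 kb, near the 2.98% of protein-coding genes, and 5 within 1 kb. The midpoint of the RARα peak lay on Mir1247 (score 193 under RA, RXRα 82.5 under control and 144 under RA), in the promoter window of the non-coding gene Dio3os. It lay 128 bp from Mir802, a microRNA of liver (RARα 63.3, RXRα 234 under control and 68.8 under RA), 191 bp from Mir6386 (RARα 99.5), whose region is also one of the 3 of Plscr2, 354.5 bp from Mir1960 (RARα 64.3) and 921 bp from Mir190a (RARα 102). Farther away stood Mir130a, at 2422 bp from the region of Ypel4, and Mir34a, at 7433.5 bp with a RARα score of 101. Mir221 and Mir222 shared 1 region with a RARα score of 53.5. These counts carry no test.

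RARα-gained peaks also overlapped promoter windows of starts other than the outermost one of the gene. At a start of Pparg, the fat cell regulator that is low in normal liver (chr6:115421816-115422115), the peak covered 136 bases of the window and scored 70.9 for RARα, with RXRα at 505.9 under control and 202 under RA. At a start of Acsl1, which activates long-chain fatty acids, RARα scored 59.7 and RXRα 416 under control and 631 under RA. Both were picked after their values were seen.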
